A study of Mus musculus with 12 samples.

Results

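The mitochondrial ribosome of B16 cells, a mouse melanoma line, was followed through the mRNAs of its protein subunits. Members were all rows of the deposited count table whose symbol is Mrpl or Mrps, a number and at most 1 further letter, which gave 77 of 24421 genes, 48 named Mrpl and 29 named Mrps. Each was measured in total RNA and in ribosome-protected fragments (footprints, or RPF), the short mRNA stretches that a translating ribosome shields from nuclease. A lentivirus brought in either a control shRNA without a relevant target (shControl) or sh309, an shRNA directed at Elp3 (shElp3). Elp3 encodes the catalytic subunit of Elongator, which starts the modification of the wobble uridine of a set of tRNAs. Both arms are thus transduced cells, and a second shRNA or a rescue was not analysed here. Each of the 4 groups held 3 libraries with the letters A, B and C, and per the labels an RPF and an RNA library with equal shRNA and letter belong together, so there were 6 cultures. Nothing says that the cultures were separate transductions, so p-values measure only the spread between these cultures.

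Mitochondria keep a ribosome of their own, which makes the few membrane subunits of the respiratory chain that mitochondrial DNA encodes. Its rRNAs come from mitochondrial DNA, while all of its proteins come from nuclear genes, are made on cytosolic ribosomes and are imported. Some of these proteins descend from bacterial ribosomal proteins and others exist only in mitochondria. The symbols do not follow the structure throughout: Mrps30 and Mrps18a sit in the large subunit, and Mrps36 is known as a component of the α-ketoglutarate dehydrogenase complex. Footprints counted here come from cytosolic ribosomes on these mRNAs and do not measure what mitochondrial ribosomes translate.

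RNA libraries held 7914369 to 16527864 counts and RPF libraries 7619269 to 10998570, and all 77 members passed the filter on low counts in both fractions, with 76 to 4564 counts per member and library. RNA of Elp3 stood at 78.7 ± 13.3 CPM (counts scaled by TMM to library size; SD, n = 3) under shControl and at 37.3 ± 3.42 CPM under shElp3. The log2 fold change was -1.08 with an SE of 0.22, and edgeR's adjusted p was 0.083, or 0.00098 with the replicate letter as a block. In footprints it fell from 105 ± 11.4 to 55.0 ± 5.86 CPM (SE of the log2 fold change 0.15, edgeR adjusted p = 0.025). All 7 melanocyte markers passed the filter, as did 3 of 5 fibroblast markers, 1 of 6 leukocyte markers and 0 of 4 epithelial markers. Of these, Pmel was called lower in both fractions (RNA -1.59, edgeR adjusted p = 0.040), and all 7 melanocyte markers lay below 0 in both. The 3 fibroblast markers lay above 0 in both, with Col1a1 called higher in footprints (1.48, adjusted p = 0.020). The leukocyte marker Cd68 lay below 0 in both (RNA -0.90, footprints -0.86). Of all genes 1.14% were called in RNA and 4.83% in footprints. The part of these markers in the results below was not tested.

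The letter A libraries stood apart from B and C in RNA and in control RPF (Spearman's rho across all genes 0.913 to 0.959 between A and the others, and 0.989 or more between B and C). In shElp3 RPF they did not, as A and B were the closest pair there (0.992, against 0.983 and 0.988). In RNA the members moved with that split. Members took 0.440% of the counts in control RNA A, against 0.294% in B and 0.307% in C, and 0.467%, 0.332% and 0.303% in shElp3 RNA A, B and C. Library A held the highest value of the 3 control RNA libraries for 71 of the 77 members, against 46.3% of all genes tested, and the highest of the shElp3 RNA libraries for 67. Cytosolic ribosomal protein mRNAs did the same, at 12.2% of control RNA counts in A, 6.18% in B and 6.06% in C. In footprints the members took 0.390%, 0.389% and 0.399% of control counts in A, B and C and 0.480%, 0.451% and 0.405% of shElp3 counts. Library C was the lowest of the shElp3 RPF libraries for 53 of the 77 members, against 39.0% of all genes. What sets these libraries apart was not tested, and the comparisons below are also given for letters B and C alone.

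The first comparison asked which mRNAs differ in abundance after the shRNA against Elp3. In total RNA 0 of 77 members were called by edgeR at an adjusted p under 0.05, where 1.14% of 12274 tested genes were. At an unadjusted p under 0.05 there were 2 members, and 12.4% of all genes. The median log2 fold change of the 77 was -0.06, beside -0.02 over all genes, with 30 values above 0 and 47 below. The sign of that median was not stable, since it ran from -0.31 without shElp3 RNA A to 0.24 without shControl RNA A and was 0.02 with letters B and C only. The median over the members within a letter was -0.16 in A, 0.12 in B and -0.05 in C.

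The members farthest from 0 in total RNA were large subunit genes. Mrpl18, whose protein sits in the central protuberance of the large subunit, was 99.4, 64.9 and 52.3 CPM in control A, B and C and 42.4, 32.4 and 32.5 in shElp3. Every shElp3 library lay below every control library (log2 fold change -1.01, SE 0.29, edgeR adjusted p = 0.200). Mrpl50, a protein found only in mitochondrial ribosomes, was 41.8, 23.4 and 18.3 CPM in control and 20.1, 11.9 and 17.4 in shElp3 (-0.75), and Mrpl47 stood at -0.74. At the other end Mrpl55 was 16.6, 11.8 and 13.7 CPM in control and 27.8, 19.7 and 19.5 in shElp3, without overlap (0.67, SE 0.26, adjusted p = 0.341). Mrpl24, whose protein lies near the exit of the peptide tunnel, was 81.3, 33.7 and 38.4 CPM in control and 118.7, 63.7 and 52.3 in shElp3 (0.61). Its control A value lay above shElp3 B and C, so the groups overlapped although shElp3 was higher within each letter. Mrps28 was next, at 0.44.

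With the replicate letter as a block, 3 members were called in total RNA by edgeR. Mrpl18 was lower (-0.97, adjusted p = 0.0028), and Mrpl24 (0.63, 0.033) and Mrpl55 (0.66, 0.045) were higher, where 6.75% of all genes were called lower and 5.46% higher in that fit. Fitting letters B and C alone gave 7, where 19.4% of all genes were called: 5 higher (Mrpl24, Mrpl35, Mrpl55, Mrps10, Mrps28) and 2 lower (Mrpl18, Mrps35). Among the members DESeq2 called Mrpl18 alone (-1.03, adjusted p = 0.040), where it called 5.31% of all genes. Control and shElp3 values did not overlap for 4 members: Mrpl3 and Mrpl55 lay above (10.2% of all genes did) and Mrpl18 and Mrpl10 below (9.56%). These shares lie below those of all genes.

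By class, the values in total RNA lay close together. Large subunit proteins with a bacterial counterpart had a median of -0.10 (9 of 30 above 0) and those found only in mitochondria -0.07 (6 of 19). Small subunit proteins with a bacterial counterpart had 0.08 (11 of 15 above 0) and those found only in mitochondria -0.11 (2 of 9). The 3 Mrps18 paralogues ran from -0.04 to 0.42, and Mrps36 was at -0.49. In none of the classes did edgeR call a member over all 6 libraries unblocked.

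Footprints were compared in the same way, to ask whose footprint level differs, which depends on mRNA abundance as well as on ribosome occupancy. Of the 77 members 4 were called, all of them in the large subunit: Mrpl24 and Mrpl35 rose (1.77% of all genes did) and Mrpl18 and Mrpl50 fell (3.06%). That is close to the share of all 11343 genes called, 4.83%. Mrpl18 was 53.8, 51.0 and 41.0 CPM in control footprints A, B and C and 25.6, 28.8 and 24.8 in shElp3 (log2 fold change -0.88, SE 0.16, edgeR adjusted p = 0.032). Mrpl50 was 31.8, 30.1 and 26.4 CPM in control and 17.9, 19.1 and 18.2 in shElp3 (-0.68, SE 0.15, adjusted p = 0.045). For both genes the 3 shElp3 libraries lay below all control libraries and close to each other.

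Mrpl24 was 56.7, 44.9 and 57.2 CPM in control footprints and 116.6, 106.8 and 84.8 in shElp3 (0.96, SE 0.17, edgeR adjusted p = 0.033). Mrpl35, a large subunit protein of bacterial descent, was 52.4, 48.4 and 50.7 CPM in control and 92.2, 90.4 and 83.2 in shElp3 (0.81, SE 0.13, adjusted p = 0.023). Neither gene's groups overlapped in footprints, and within both groups of each the 3 libraries were closer than in total RNA. The next highest values were Mrpl55 (0.63, adjusted p = 0.101) and Mrps15 (0.55, 0.149), and the next lowest was Mrps36 (-0.37, 0.307).

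**Figure D1:**
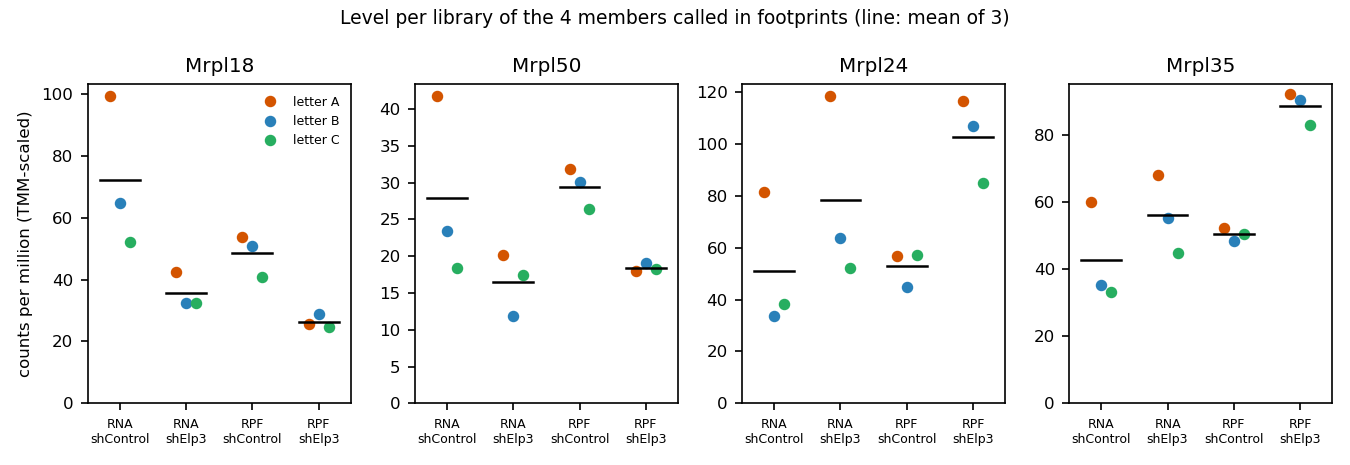
Level in CPM scaled by TMM (vertical axis, from 0) of the 4 members called in footprints, in each of the 12 libraries by fraction and shRNA, with colours for letters and a line at the mean of 3. In footprints the control and shElp3 points of each gene do not overlap, and in total RNA the letter A points are the highest for all 4 genes in both groups.

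The 4 calls depended on which libraries were fitted. Leaving out shControl B or shControl C left 0 members called, with the smallest adjusted p over the members at 0.097 and 0.062, and of all genes 52 and 59 were then called. Leaving out A, B or C of the shElp3 libraries also left 0, at a smallest adjusted p of 0.135, 0.141 and 0.084, and 0 of all genes were called. Leaving out shControl A gave 12 members, where 24.8% of all genes were called. DESeq2 called 6 members (11.5% of all genes). With letters B and C only there were 8, where 21.7% of all genes were called: the 4 above, with Mrpl30 (0.44), Mrpl57 (0.53), Mrps16 (0.49) and Mrps18a (0.59) higher. The 4 folds kept their direction, and ran from -0.99 to -0.78 for Mrpl18 and from 0.85 to 1.08 for Mrpl24 over all alternatives run. Mrpl35 was at 0.81 both with the letter block and with letters B and C only. Mrpl50 was at -0.67 with the block (edgeR adjusted p = 0.067) and at -0.60 with letters B and C only. The alternatives share libraries with the main fit, so their folds are not independent of it.

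Over all members the median log2 fold change in footprints was 0.06, beside -0.01 over all genes, with 46 values above 0 and 31 below. The within-letter medians were 0.20 for A, 0.09 for B and -0.03 for C. Control and shElp3 values did not overlap for 27 members, 16 with shElp3 above (15.4% of all genes were) and 11 below (15.3%). Small subunit proteins with a bacterial counterpart had a median of 0.16 (12 of 15 above 0), and the other classes lay between -0.01 and 0.13, apart from Mrps36.

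Promoters of the 4 called members are shown because their footprints changed in opposite directions. The sequences are from RefSeq on GRCm38.p6 and end at the base before the start annotated for the promoter. For Mrpl18 and Mrpl24 that start lies inside the gene's own RefSeq model (chr17:12911345-12917787 and chr3:87918131-87923450). The printed stretches of these genes thus lie within the model, and distances are counted from that internal start. They reach back 250 bases, or to the base before the start of a gene that runs the other way. Mrpl18 (minus strand, chr17:12916092-12916328), Mrpl50 (minus strand, chr4:49521084-49521175), Mrpl24 (plus strand, chr3:87919294-87919543) and Mrpl35 (minus strand, chr6:71823785-71824034) are written 5′ to 3′ on the gene's strand. Capitals mark matches to CCAAT, on either strand, or to the core sequence that the transcription factor ZNF143 is known to bind.
Mrpl18: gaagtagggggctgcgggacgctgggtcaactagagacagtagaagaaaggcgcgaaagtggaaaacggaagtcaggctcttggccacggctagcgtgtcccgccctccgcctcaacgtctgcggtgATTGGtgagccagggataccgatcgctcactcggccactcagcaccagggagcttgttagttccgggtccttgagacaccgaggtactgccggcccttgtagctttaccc
Mrpl50: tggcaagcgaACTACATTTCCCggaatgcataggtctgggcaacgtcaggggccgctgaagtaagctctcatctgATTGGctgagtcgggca
Mrpl24: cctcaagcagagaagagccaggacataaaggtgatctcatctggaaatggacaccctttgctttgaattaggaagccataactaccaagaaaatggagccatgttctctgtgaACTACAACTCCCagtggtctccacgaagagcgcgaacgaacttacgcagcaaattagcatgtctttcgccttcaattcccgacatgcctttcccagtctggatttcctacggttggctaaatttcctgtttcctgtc
Mrpl35: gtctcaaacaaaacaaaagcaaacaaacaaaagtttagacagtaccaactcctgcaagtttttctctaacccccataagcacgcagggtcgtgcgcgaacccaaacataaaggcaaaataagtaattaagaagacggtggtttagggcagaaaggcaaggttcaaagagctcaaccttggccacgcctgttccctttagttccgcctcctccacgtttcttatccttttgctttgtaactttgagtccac
Mrpl50, which fell, and Mrpl24, which rose, both hold the ZNF143 core, 82 to 71 and 137 to 126 bases before the start. The reversed CCAAT box lies 110 to 106 bases before the start of Mrpl18 and 17 to 13 before that of Mrpl50. The printed stretch of Mrpl35 holds none of the motifs searched, but its full 300-base window holds the YY1 motif given below, and that of Mrpl18 holds the ETS motif, both outside the printed stretch.

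The motifs were searched on both strands of the 300-base windows (250 before and 50 from the start on) of the 68 members that have one, and were chosen with the results known. The ETS motif CCGGAAG was in 36.8% of the members' windows, in 9.93% of all 27025 windows and in 21.5% of the 8718 windows of genes tested in footprints. The NRF1 motif was in 19.1%, 5.19% and 12.4%, and the YY1 motif AAGATGGCG in 11.8%, 1.64% and 3.88%. NRF1 and the ETS factor GABP are known regulators of nuclear genes for mitochondrial proteins. The ZNF143 core was in 7.35%, 2.08% and 5.22%, CCAAT in 39.7%, 41.1% and 43.4%, the heat shock motif GAANNTTC in 7.35%, 9.04% and 6.97%, and TATAAA in 7.35%, 15.7% and 8.06%. A match is a string of letters, not a measured binding site.

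Members also often share their start region with another gene. Of the 68, 26 (38.2%) start within 1000 bases of a gene that runs the other way, against 12.2% of all genes with a window and 21.0% of those tested in footprints. From the start used above, Mrpl18 lies 238 bases from Tcp1, a subunit of the cytosolic chaperonin. Tcp1 was at -0.58 in RNA (edgeR adjusted p = 0.699) and -0.11 in footprints (0.712). The 2 gene models overlap, and how reads shared by overlapping genes were counted is not given in the sources used here. Mrpl50 starts 93 bases from the zinc finger gene Zfp189, which was at -0.05 in RNA and 0.24 in footprints. Mrpl24 overlaps the model of Rrnad1, at 0.33 in RNA and 0.52 in footprints (adjusted p = 0.682 and 0.241), whose footprint level was 3.71 ± 0.434 CPM in control and 5.29 ± 0.261 in shElp3 (SD, n = 3).

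The same members were then set side by side in both fractions. Across the 77 genes, which are not independent replicates, the log2 fold changes in RNA and in footprints had a Pearson r of 0.79, beside 0.85 over the 11238 genes tested in both. The RNA and RPF libraries of a letter share a culture. The 2 values had the same sign for 51 members (66.2%, against 79.8% of all genes). Below 0 in RNA and above 0 in footprints were 21 of the 77 members and 1264 of the 11238 genes. The other way round were 5 members and 1007 genes. As given above, the sign of the members' median in RNA depended on the libraries fitted.

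**Figure D2:**
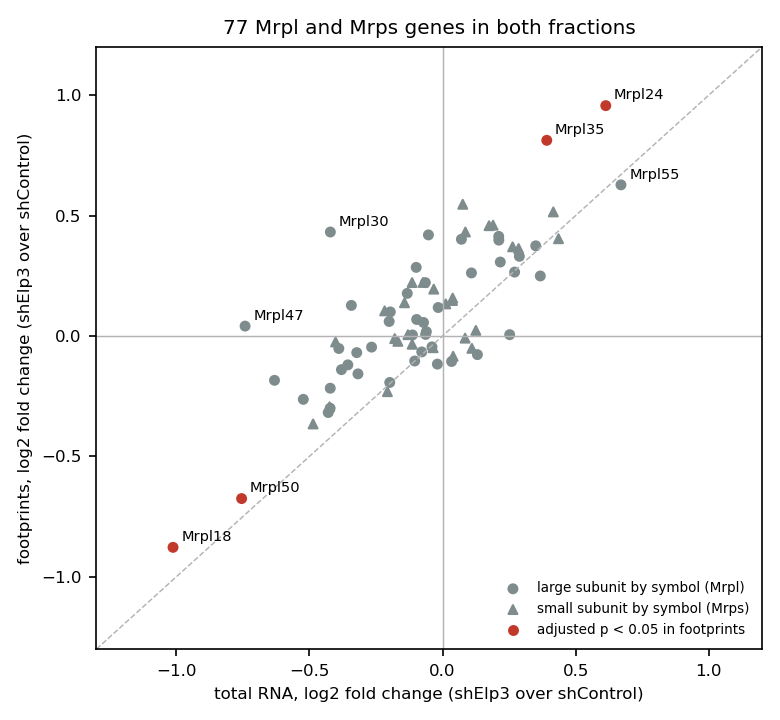
Log2 fold change of shElp3 over shControl in total RNA (horizontal axis) and in footprints (vertical axis) for the 77 members, with circles for Mrpl and triangles for Mrps symbols, red for the 4 called in footprints, and a dashed line where both are equal. Mrpl18 and Mrpl50 lie low and Mrpl24 and Mrpl35 high on both axes, and Mrpl30 and Mrpl47 lie farthest above the line.

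Whether ribosome occupancy changed beyond mRNA was tested by an interaction term, fraction by shRNA, over all 12 libraries. In that edgeR test 0 of 77 members and 0% of 11238 genes were called, and DESeq2 called 0 genes. An unadjusted p under 0.05 was found for 0 members and 62 genes (0.55%), and for 3.28% of genes with letters B and C only. Both shares are smaller than that threshold gives without any effect. The test is thus conservative, and 0 calls do not show that occupancy was unchanged. The largest member value was that of Mrpl30, with a change of 0.80 (SE 0.48). Its RNA was 205.2, 83.6 and 72.9 CPM in control A, B and C and 122.2, 77.1 and 70.8 in shElp3, while its footprints were 68.3, 61.8 and 70.9 in control and 90.5, 92.4 and 88.3 in shElp3. Footprints did not overlap between the groups, and RNA did, with control A far above the rest. Mrpl47 (0.73) and Mrps15 (0.42) followed, and the lowest were Mrpl2 (-0.30), Mrpl4 (-0.26) and Mrps2 (-0.21).

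The members' median change of the ratio was 0.08, beside -0.03 over all genes, with 57 values above 0. Within letters A, B and C it was 0.28, -0.04 and 0.01, so the shift lay in letter A. It was -0.19 without the shControl A culture and 0.35 without the shElp3 A culture, and 0.01 with letters B and C only. For 0 members did all shElp3 ratios lie above, or all below, the control ratios, which 2.28% and 4.84% of all genes did.

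In control cells alone, footprints were set against RNA to ask how the ratio of each gene compares with that of the typical gene. Transcript and coding lengths were not used, so differences in this ratio between genes are not differences in ribosome density alone. Here 11 members were called higher in footprints (8.35% of all 10583 genes were) and 2 lower (14.7%). The median log2 ratio over the members was 0.29, beside -0.05 over all genes, and 53 of 77 lay above 0. Cytosolic ribosomal proteins had a median of -1.13, with 28 of 77 called lower and 0 higher, and nuclear-encoded subunits of the respiratory chain and ATP synthase had 0.49, with 10 of 74 called higher and 0 lower.

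The highest member was Mrps36, at 23.8, 17.1 and 13.5 CPM in control RNA A, B and C and 66.2, 42.9 and 45.5 in footprints (log2 ratio 1.62, SE 0.31, edgeR adjusted p = 0.011). RefSeq names pseudogenes of Mrps36, so its reads may be shared with near-identical copies. Mrps22, a small subunit protein found only in mitochondria, had 22.1, 18.2 and 15.6 CPM in RNA and 29.1, 57.6 and 53.0 in footprints (1.43, SE 0.32, adjusted p = 0.019). Mrpl22, which lines the peptide tunnel, had 24.3, 14.6 and 11.7 CPM in RNA and 45.8, 41.0 and 39.7 in footprints (1.43, SE 0.31, adjusted p = 0.018). In all 3 genes every control footprint value lay above every control RNA value.

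Other small subunit members called higher were Mrps18c (1.28), Mrps6 (1.28) and Mrps21 (1.23), all with bacterial counterparts. In the large subunit they were Mrpl52 (1.07), Mrpl23 (1.03), Mrpl14 (0.95), Mrpl39 (0.94) and Mrpl38 (0.92). Mrpl23 has a named pseudogene as well. The model of Mrps6 overlaps that of Slc5a3, and the model of Mrpl14 overlaps that of Tmem63b. The 2 members called lower were found only in mitochondria. Mrpl43 had 113.6, 55.7 and 52.9 CPM in RNA and 25.8, 22.8 and 29.8 in footprints (-1.39, SE 0.34, edgeR adjusted p = 0.025), and Mrps26 had 54.3, 41.7 and 47.4 in RNA and 10.6, 22.8 and 23.6 in footprints (-1.22, SE 0.34, adjusted p = 0.038). Mrpl43 overlaps the model of Twnk, the mitochondrial DNA helicase. Mrps24 was next (-1.06, adjusted p = 0.051).

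**Figure D3:**
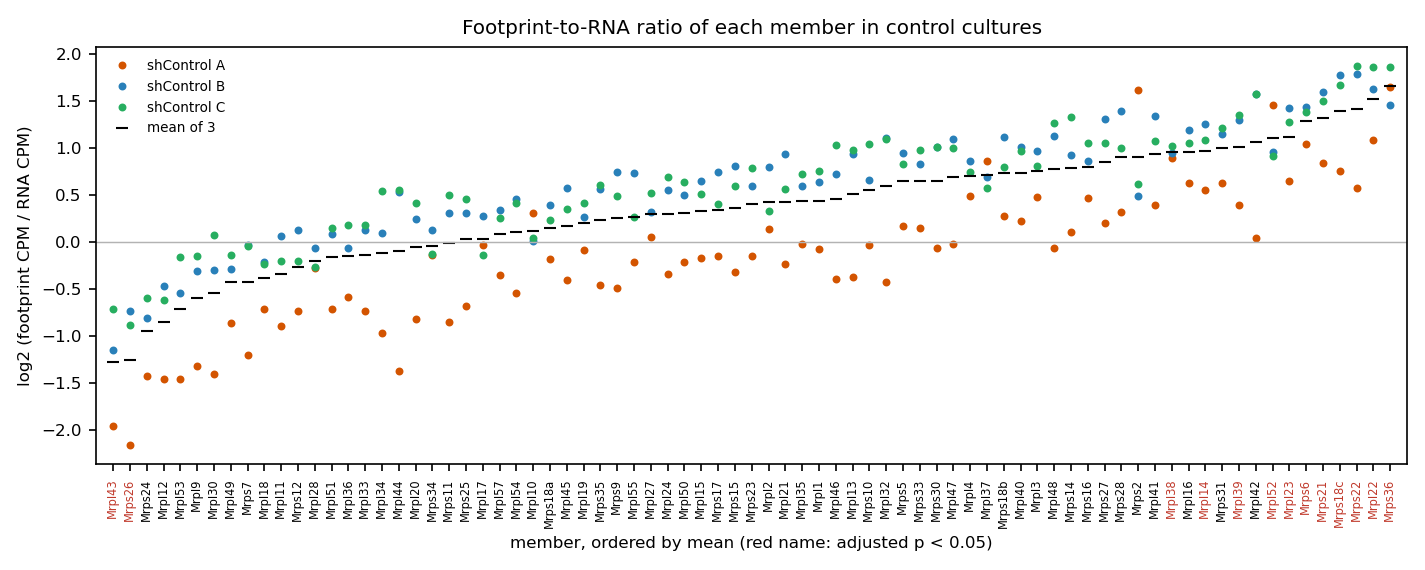
Log2 ratio of footprint CPM to RNA CPM (vertical axis) in control cultures A, B and C for each of the 77 members, ordered by the mean of 3 (black dash), with the names of the 13 called members in red. Letter A points lie below the other 2 for most members, while Mrps36 and Mrpl22 lie above 0 and Mrpl43 and Mrps26 below 0 in all 3 cultures.

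These counts depended on the letters. DESeq2 called 19 members in all, where it called 32.0% of all genes. With the letter as a block, 18 members were called higher (15.2% of all genes) and 4 lower (20.1%). From letters B and C alone, 55 were higher (33.5%) and 5 lower (35.7%). Without shControl B or without shControl C 0 were called, at a smallest adjusted p of 0.150 and 0.123, and 31 and 132 of all genes were. The median ratio of the members was -0.14 in control A, 0.65 in B and 0.61 in C, and 0.25, 0.64 and 0.65 in shElp3 A, B and C. In B and C it lay above 0 under both shRNAs, with 62 to 65 of 77 members above 0. Letter A was lower in both, as it was for cytosolic ribosomal proteins (-1.82 in control A against -0.57 and -0.41 in B and C) and for respiratory subunits (-0.02 against 0.98 and 1.06).

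**Figure D4:**
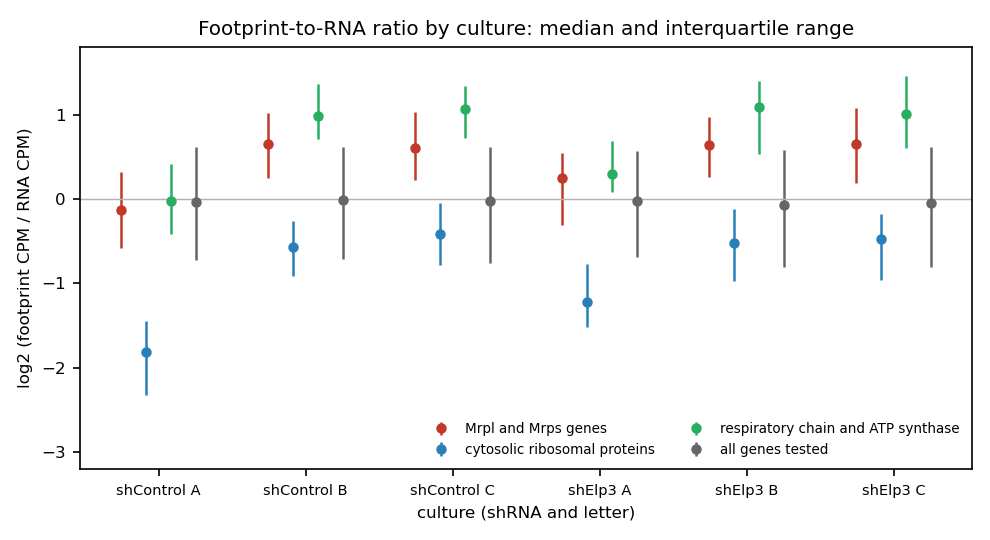
Median (point) and interquartile range (bar) of the log2 ratio of footprint CPM to RNA CPM (vertical axis) in the 6 cultures, for the 77 members, cytosolic ribosomal proteins, respiratory chain and ATP synthase subunits, and all genes tested. In letters B and C of both shRNAs the members lie between the respiratory subunits above and the cytosolic ribosomal proteins below, and in letter A all 3 lists lie lower while all genes stay near 0.

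The partners of the mitochondrial ribosome were read from fixed lists, and none of their members was called by edgeR over all 6 libraries of either fraction without a block. Of 24 tested assembly factors, which process and fold the rRNAs and join the subunits, 15 were above 0 in RNA and 17 in footprints. Over all genes tested 48.1% were above 0 in RNA and 49.1% in footprints. The GTPase Mtg1 had 18.6 ± 2.78 CPM in control RNA and 30.0 ± 5.48 in shElp3 (SD, n = 3; 0.69, edgeR adjusted p = 0.280, and 0.029 with the letter block). With that block 12.2% of all genes were called in RNA. Of 14 translation factors 8 were above 0 in RNA and 9 in footprints, among them Taco1, the activator of cytochrome oxidase subunit translation (RNA 0.63, edgeR adjusted p = 0.401, and 0.045 with the letter block). Genes of mitochondrial RNA synthesis and stability were above 0 for 5 of 13 in RNA and 7 of 12 in footprints, with the RNA polymerase Polrmt at 0.41 and 0.31. Proteins of the mitochondrial ribosome under other symbols, such as Dap3 (RNA -0.38, footprints -0.02), ran from -0.38 to 0.13 in RNA and from -0.15 to 0.31 in footprints. The 3 enzymes that modify the wobble uridine of mitochondrial tRNAs stood at 0.47 (Mto1), -0.15 (Gtpbp3) and 0.67 (Trmu) in RNA and at 0.32, -0.05 and 0.26 in footprints. Fitted on letters B and C alone, edgeR called Mtg1 (0.65), Mtif3 (0.61), Taco1 (0.59) and Trmu (0.62) higher and Noa1 (-0.71) lower in RNA. In footprints it called Oxa1l (-0.39) and Pnpt1 (-0.45) lower. In those fits 19.4% of all genes were called in RNA and 21.7% in footprints.

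In control cells the same lists held calls for footprints against RNA in both directions. Of 24 assembly factors 2 were higher, Tfb1m (log2 ratio 0.96) and Mterf3 (0.80), and 2 lower, Wbscr16 (-1.65) and Mrm1 (-1.44). Of 14 translation factors the elongation factor Gfm1 was higher (1.01) and the peptide deformylase Pdf lower (-2.00). Of 11 genes of RNA synthesis and stability Slirp (1.38) and Pnpt1 (1.32) were higher. Of the 3 wobble enzymes Gtpbp3 was lower (-2.13, SE 0.30, edgeR adjusted p = 0.005), and of 6 proteins of the mitochondrial ribosome under other symbols 0 were called. From letters B and C alone, 8 assembly factors were higher and 3 lower, 8 translation factors higher and 1 lower, 8 of 12 RNA genes higher, 1 wobble enzyme higher and 1 lower, and all 6 of the other ribosomal proteins higher. The shares of all genes called in these fits are those given for the members above.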

How the data were processed

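The deposited table holds whole-number read counts per gene symbol for 12 libraries, not normalized. The kit was TruSeq Ribo Profile (Mammalian), per the labels' protocols. The submitters' processing notes name mm10 as build and TopHat2 2.1.1, Bowtie, HTSeq and bcl2fastq as tools. The sources used here give neither the annotation and strand setting nor the part of a gene over which footprints were counted, so reads of overlapping or antisense genes cannot be told apart. Footprint counts may also hold other protected RNA.

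Members were found by symbol, and they, the gene lists, the tests and the motifs were chosen with earlier results of these data known. Genes were kept with filterByExpr (minimum count 10), libraries scaled by TMM, and counts tested with edgeR 4.0.16 (glmQLFit, glmQLFTest; R 4.3.3). P-values were adjusted by Benjamini-Hochberg over all genes tested, with a threshold of 0.05. SEs were derived from the F statistic (log2 fold change over its square root). The ratio of footprints to RNA was tested as an interaction over 12 libraries, and in control as fraction alone in 6. The functions were tested on simulated counts. Members called were named with full values, with the 3 highest and 3 lowest where under 6 were called, up to 4 called genes of other lists, and up to 2 as values where none was called. Alternatives were DESeq2 1.42.0, RLE size factors, other count filters, letter and culture blocks, letters B and C only, and leaving out each library or culture. Gene positions, promoters and neighbours came from RefSeq (GRCm38.p6), where 77 members had a position and 68 a promoter. Transcript lengths were not used, so levels of different genes are not compared.

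Same-letter libraries of the 2 shRNAs deviated together in RNA (r across genes 0.807, 0.423 and 0.582 for A, B and C) and in the ratio (0.763, 0.460 and 0.487), although B and C correlated as well with each other (0.688 and 0.579 in RNA). RNA and RPF libraries of a control culture, which the labels tie together, had 0.477, 0.504 and 0.415. RPF libraries gave 0.328, -0.107 and 0.215, and were treated as unpaired. No pair of libraries in a group agreed within sampling noise (chi-square per degree of freedom 7.94 or more).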

Additional observations from a re-analysis of the deposited data

How the results depend on the processing

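The number of members called in total RNA was 0 in the fit of all 6 libraries and without any 1 library, and was 1 with DESeq2 (5.31% of all genes called), 3 with the replicate block and 7 with letters B and C only. In footprints it was 4, and it was 6 with DESeq2 (11.5% of all genes), 3 with the replicate block (5.87%) and 3 with no count filter (4.36%), where Mrpl50 had an adjusted p of 0.067 and 0.053, 8 with letters B and C only, and 0 to 12 when 1 library was left out. Since the letters do not pair the RPF libraries, the block says little there. For the change of the footprint-to-RNA ratio it was 0 under every alternative run, with the replicate block by letter or by culture too. For footprints against RNA in control it was 13, and it was 22 with the replicate block, 60 with letters B and C only, 19 with DESeq2 (32.0% of all genes), and 0 to 60 when 1 culture was left out, where 60 came without shControl A and the fit is that of letters B and C only. RLE size factors and the filter of 1 CPM in 3 libraries changed no count by more than 1 member, and no called member changed direction in any alternative. Fits without 1 library assume that the remaining pair varies like the other group.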
